A study of Mus musculus with 44 samples.

Results

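The claudins of simple epithelium described here are 10 genes, Cldn1, Cldn2, Cldn3, Cldn4, Cldn7, Cldn10, Cldn12, Cldn15, Cldn18 and Cldn23, out of the 31484 genes with a transcript in the deposited counts. They were chosen by name among the family members of epithelia, with earlier results of these data known. The list is not complete, since Cldn8, described below, is outside it. The transcript counts of the 10 were summed per gene with the GENCODE vM21 names. All 10 were among the 14901 genes that passed the filter on low counts. The other 25 genes of the family were left aside, except for the 3 with a mean of at least 1 CPM (the count scaled to a common library size, with TMM normalization).

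Messenger RNA was sequenced from biopsies of the ventral gastric corpus mucosa of female mice on a BalbC background, 13 months old at the end of the study. The knockout (KO) mice lack the H+/K+ATPase beta subunit (Atp4b), the proton pump subunit of the parietal cell, by a constitutive deletion, and wild-type (WT) mice were the controls. Each genotype was given the gastrin receptor antagonist netazepide (NTZ, named YF in the labels) or its vehicle polyethylene glycol (PEG), which made 4 groups of libraries: 11 of WT/PEG, 13 of KO/PEG, 9 of WT/NTZ and 11 of KO/NTZ. The labelled KO/PEG libraries outnumber the KO/PEG mice given in the methods of the study. All were used, each as 1 sample, so that p-values measure the spread between libraries. Single libraries are named by genotype and animal number as in the labels (WT_117).

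Claudins are small proteins with 4 membrane-spanning stretches that join neighbouring epithelial cells at the tight junction. Some, such as claudin-1, claudin-3, claudin-4 and claudin-18, are known as sealing claudins that hold back ions. Others, such as claudin-2, claudin-10 and claudin-15, form channels between the cells for small ions and, in the case of claudin-2, water. The set of claudins a tissue makes sets how leaky its epithelium is, and the acid-secreting stomach is known for the abundance of claudin-18, whose loss in mice lets acid leak back into the mucosa.

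Libraries held a total of 6065084 to 21945124 estimated counts, and 3 counts, taken as the floor of detection, corresponded to between 0.113 and 0.587 CPM. This floor covers counting error only. Atp4b was between 2139 and 5738 CPM in the WT libraries and between 2.28 and 40.6 CPM in the KO libraries, so it separated the genotypes. The epithelial markers Epcam, Cdh1, Krt8, Krt18 and Krt19 were each at least 126.5 CPM in every library. Other tissue was present in places, since the summed markers of squamous epithelium, which lines the forestomach, reached 100 CPM in 6 of 9 WT/NTZ, 3 of 11 WT/PEG, 2 of 13 KO/PEG and 5 of 11 KO/NTZ libraries. Gast, the gastrin gene of antral G cells, was 10 CPM or more in WT_117 and WT_118 (WT/NTZ), WT_120 (WT/PEG) and KO_36 (KO/NTZ). The share of counts from the mitochondrial genome was between 5.8% and 11.7% in WT libraries and between 1.85% and 14.4% in KO libraries. These values are given again beside the results they move with.

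Cldn18 was the predominant claudin in each group. On the per-length scale (TPM, the level per transcript length), which allows levels to be compared between genes, its median was 370 TPM in WT/PEG and 509 TPM in KO/PEG mice. With NTZ the medians on this scale stood the other way, at 342 TPM in WT/NTZ and 324 TPM in KO/NTZ mice. Their ranges overlapped widely, from 278 to 517 TPM in WT/NTZ and from 242 to 456 TPM in KO/NTZ. In counts not scaled by length, Cldn18 was higher in KO/NTZ than in WT/NTZ mice (log2 fold change 0.30, given below). Cldn18 made up between 94.4% and 96.8% of the summed level of the 10 claudins in the WT/PEG libraries, between 92.3% and 95.8% in WT/NTZ, between 52.9% and 89.3% in KO/PEG and between 67.5% and 88.3% in KO/NTZ. No KO library reached the lowest share of the WT libraries. The per-length level of Cldn18 depends on how its reads were divided between a long and a short transcript, described below.

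Among the 10, the order below Cldn18 differed between the genotypes. In WT/PEG mice, Cldn12 came next with a median of 11.2 TPM, then Cldn7 with 2.85 TPM, and the ranges of these first 3 did not overlap. Cldn15, Cldn23, Cldn3, Cldn1, Cldn4, Cldn10 and Cldn2 followed with medians from 0.876 down to 0.0653 TPM, and each of them overlapped with its neighbour in this order. Outside the 10, Cldn8 had a WT/PEG median of 4.38 TPM, above that of Cldn7. Cldn22 and Cldn5 had 1.74 and 1.28 TPM, above that of Cldn15. In KO/PEG mice the order after Cldn18 was Cldn7 with a median of 46.3 TPM, Cldn4 with 18.5 TPM, Cldn23 with 11.6 TPM, Cldn3 with 9.7 TPM, Cldn12 with 8.5 TPM and Cldn2 with 2.7 TPM, where all neighbours except Cldn18 and Cldn7 overlapped. Cldn1 was lowest in both KO groups. In KO/NTZ mice the order differed from that of KO/PEG mice in 2 places, where Cldn3 stood before Cldn4 and Cldn23, and Cldn10 before Cldn15.

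**Figure D1:**
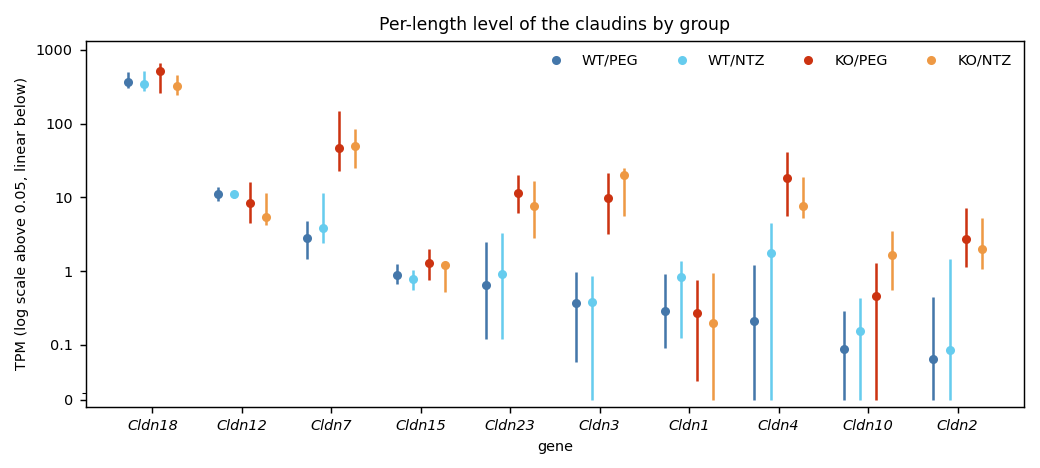
Per-length level in TPM (vertical axis, log scale with a linear part near 0) of each claudin (horizontal axis, ordered by the WT/PEG median). Points are group medians and lines run from the lowest to the highest library of the group. Cldn18 lies far above the rest in all groups, and Cldn2, Cldn3, Cldn4, Cldn7 and Cldn23 lie higher in the KO groups.

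Genotype was the first comparison, KO/PEG with WT/PEG. Cldn2, Cldn3, Cldn4, Cldn7 and Cldn23 rose between 13.2-fold and 59.4-fold in KO/PEG mice, and Cldn10 rose from a level near the floor. Cldn18 and Cldn15 rose and Cldn12 fell, each by less than 1.5-fold, while Cldn1 did not pass the test. Thus 9 of the 10 claudins were called at an adjusted p under 0.05 (quasi-likelihood test of edgeR, adjusted over all genes after Benjamini and Hochberg), 8 of them higher and 1 lower. In this comparison 74.7% of all genes tested were called, 37.5% higher and 37.2% lower, so that being called was common and calls over all genes were split almost evenly by direction. The median log2 fold change of the 10 was 2.98, against -0.00 over all genes tested. The libraries of the groups did not overlap for 5 of the 10 claudins, which held for 14.3% of all genes tested. The claudins were chosen with earlier results of these data known, so these counts and the median only describe the 10. Cldn2, Cldn3, Cldn4 and Cldn10 did not pass the filter in WT libraries alone. They were tested through the KO libraries, where they were higher. For Cldn10 these were the KO/NTZ libraries, since it did not pass with the WT/PEG and KO/PEG libraries alone.

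In bulk tissue, fewer cells of a type and less RNA per cell cannot be told apart. The makeup of the mucosa differed widely between the genotypes. The summed parietal cell markers were between 9459 and 15561 CPM in WT/PEG and between 2094 and 7364 CPM in KO/PEG libraries. Those of chief cells were between 96181 and 242370 CPM in WT/PEG and between 2526 and 50689 CPM in KO/PEG, and those of mucous neck and SPEM (spasmolytic polypeptide-expressing metaplasia) cells between 1797 and 2702 CPM in WT/PEG and between 5106 and 57304 CPM in KO/PEG. The summed epithelial markers had a median of 4559 CPM in WT/PEG and 8841 CPM in KO/PEG. The part of these shifts in the claudin differences was not tested.

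**Figure D2:**
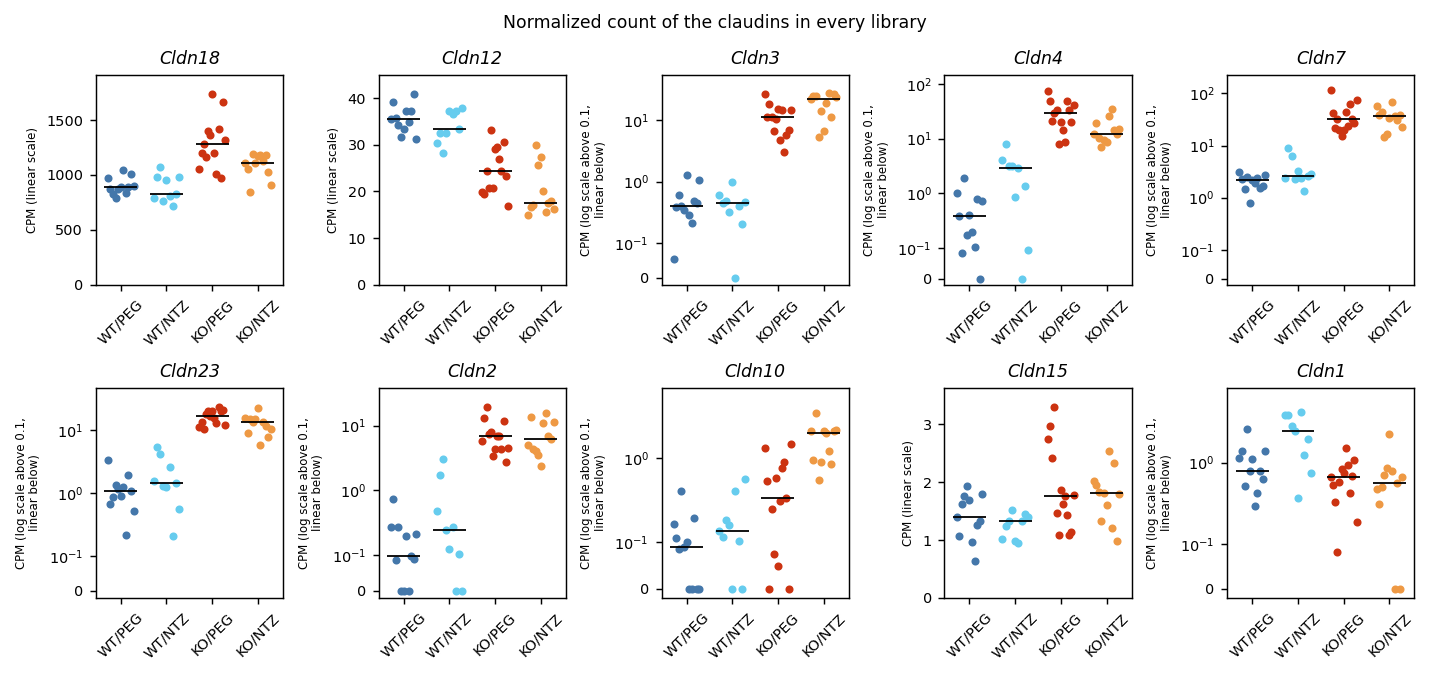
Normalized count in CPM (vertical axes, linear for Cldn18, Cldn12 and Cldn15 and otherwise log with a linear part near 0) of the 10 claudins in each library. Points are single libraries of the 4 groups on the horizontal axis and lines are group medians. For Cldn2, Cldn3, Cldn4, Cldn7 and Cldn23 every KO/PEG library lies above every WT/PEG library.

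The sealing claudins are described first. Cldn4 (ENSMUSG00000047501) lies on chromosome 5 of GRCm38 from 134945119 to 134946934 on the minus strand, and Cldn3 (ENSMUSG00000070473), its close neighbour, on the same chromosome from 134986214 to 134987472 on the plus strand. The 250 bases before the start of these genes and of Cldn2, from RefSeq (GRCm38.p6), are shown because these 3 claudins rose most. Capitals mark the motifs searched.
Cldn4 promoter, chr5:134946935-134947184, minus strand: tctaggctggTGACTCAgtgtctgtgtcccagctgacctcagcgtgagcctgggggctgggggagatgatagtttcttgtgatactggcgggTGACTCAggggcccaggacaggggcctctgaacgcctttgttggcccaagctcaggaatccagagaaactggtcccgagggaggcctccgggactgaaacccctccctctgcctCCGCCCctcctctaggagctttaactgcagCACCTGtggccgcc
Cldn3 promoter, chr5:134985964-134986213, plus strand: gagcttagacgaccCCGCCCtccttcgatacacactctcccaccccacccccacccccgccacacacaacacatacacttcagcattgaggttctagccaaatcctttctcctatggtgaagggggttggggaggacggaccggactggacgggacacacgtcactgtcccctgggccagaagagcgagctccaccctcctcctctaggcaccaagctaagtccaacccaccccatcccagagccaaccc
Cldn2 promoter, chrX:139800558-139800807, plus strand: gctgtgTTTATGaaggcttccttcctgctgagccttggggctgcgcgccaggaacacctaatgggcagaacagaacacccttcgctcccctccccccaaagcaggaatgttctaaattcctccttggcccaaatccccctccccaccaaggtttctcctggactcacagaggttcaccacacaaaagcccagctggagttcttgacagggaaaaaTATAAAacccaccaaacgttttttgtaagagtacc

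Motifs were searched on both strands in the 14 such windows that RefSeq gives for 9 of the 10 claudins, all but Cldn23, and in all 32851 windows. No matches of different motifs overlapped in the windows shown. The GC box, GGGCGG, was in 8 of the 14 windows and in 32.7% of all windows. AP-1, written TGANTCA, was in the windows of Cldn4 and Cldn15, and in 6.75% of all. The Cldn4 window also held the E-box CAGGTG, as did a window of Cldn7, and 17.2% of all windows held it. The TATA box TATAAA was in the window of Cldn2 alone, and in 12.4% of all. So was the CDX motif CATAAA, which 10.8% of all windows held. None of the 14 windows held GATA (written GATAAG, in 6.55% of all). Nor did they hold HNF4 (written CAAAGTCCA, in 0.384% of all). The Grainyhead-like motif AACCNGTT was also in none, and in 1.79% of all. A match is a stretch of letters and was not tested as a binding site.

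Cldn4, a sealing claudin of the gut and lung, had a lowest, median and highest value of 0, 0.392 and 1.9 CPM in WT/PEG and of 7.95, 30.1 and 74.3 CPM in KO/PEG mice. The groups did not overlap. The difference was 59.4-fold (log2 fold change 5.89, with a standard error, SE, of 0.53, adjusted p = 1.17e-12 by edgeR). Of the genes tested, 0.329% had a larger change in either direction.

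Cldn3, which seals the intestinal and gastric junction, had values of 0.0538, 0.408 and 1.3 CPM in WT/PEG and of 3.02, 10.9 and 26.4 CPM in KO/PEG (lowest, median and highest). Again there was no overlap, and the difference was 22.6-fold (log2 fold change 4.50, SE 0.38, adjusted p = 3.24e-13 by edgeR). Cldn7 (ENSMUSG00000018569, chromosome 11 from 69964779 to 69967885), a claudin found along the lateral membrane and known to bind EpCAM, had 0.793, 2.2 and 3.07 CPM in WT/PEG and 15.1, 32 and 114.7 CPM in KO/PEG. It was the only one of these 5 that had more than 3 counts in each WT library. Its difference was 19.6-fold (log2 fold change 4.29, SE 0.35, adjusted p = 7.1e-14 by edgeR).

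Cldn23 (ENSMUSG00000055976, chromosome 8 from 35824712 to 35826559), a less studied claudin, had 0.213, 1.07 and 3.39 CPM in WT/PEG and 10.5, 16.7 and 23.6 CPM in KO/PEG. The groups did not overlap and differed by 13.2-fold (log2 fold change 3.73, SE 0.32, adjusted p = 5.51e-13 by edgeR). Among the KO/PEG libraries it varied the least of the 5 claudins, with a highest value 2.24 times the lowest, while this ratio was between 7.13 and 9.35 for Cldn2, Cldn3, Cldn4 and Cldn7.

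Cldn1 (ENSMUSG00000022512, chromosome 16 from 26356642 to 26371841), the sealing claudin of the skin barrier, was low in all groups. It had 0.291, 0.793 and 2.58 CPM in WT/PEG and 0.0826, 0.658 and 1.51 CPM in KO/PEG. The groups overlapped, and the log2 fold change of -0.55 (SE 0.41, 95% interval from -1.34 to 0.25) did not pass the test (adjusted p = 0.221 by edgeR).

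Of the channel-forming claudins, Cldn2 (ENSMUSG00000047230, chromosome X from 139800828 to 139811386), the cation and water channel of leaky epithelia, was close to the floor in WT mice. It had at most 3 counts in 9 of 11 WT/PEG libraries, and the group held 27 counts in all, against 1410 in KO/PEG. Its values were 0, 0.0972 and 0.728 CPM in WT/PEG and 2.7, 7 and 19.2 CPM in KO/PEG, with no overlap. The log2 fold change was 5.17 (SE 0.57, adjusted p = 2.64e-10 by edgeR), an estimate whose size rests on few WT counts.

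Cldn10 (ENSMUSG00000022132, chromosome 14 from 118787908 to 118875489), whose isoforms form channels for cations or for anions, had at most 3 counts in all 11 WT/PEG libraries and in 5 of 13 KO/PEG libraries. Values were 0, 0.0881 and 0.408 CPM in WT/PEG and 0, 0.338 and 1.47 CPM in KO/PEG. The groups overlapped, with 6 of 13 KO/PEG libraries above every WT/PEG library, and the log2 fold change was 2.23 (SE 0.58, adjusted p = 0.000688 by edgeR).

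Cldn15 (ENSMUSG00000001739, chromosome 5 from 136966616 to 136975858), the sodium channel of the small intestine, had 0.64, 1.4 and 1.94 CPM in WT/PEG and 1.08, 1.77 and 3.3 CPM in KO/PEG. The groups overlapped widely. The log2 fold change of 0.42 (SE 0.19) passed with an adjusted p of 0.0387 (edgeR), but single libraries decided the call. It was lost, with adjusted p between 0.0511 and 0.0965, when any 1 of 9 libraries was left out: KO_109, KO_110, KO_111 or KO_126 of KO/PEG, or WT_128, WT_150, WT_172_1, WT_172_2 or WT_173 of WT/PEG. The call was also lost with the WT_172 libraries summed to 1 (0.38, adjusted p = 0.062), both libraries of animal 110 left out (adjusted p = 0.0869), limma-trend (adjusted p = 0.0546), only the groups compared (adjusted p = 0.0651) and the most abundant transcript (adjusted p = 0.29). It was lost without the libraries with squamous RNA (adjusted p = 0.0842) or with Gast RNA (adjusted p = 0.052). With the mitochondrial share as a covariate the log2 fold change was 0.10 (adjusted p = 0.705).

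Cldn12 (ENSMUSG00000046798, chromosome 5 from 5489537 to 5514958), a claudin linked to calcium passage in the gut, fell in KO/PEG mice. It had 31.3, 35.6 and 41 CPM in WT/PEG and 16.9, 24.4 and 33.2 CPM in KO/PEG, and 12 of 13 KO/PEG libraries were below every WT/PEG library. On the log2 scale it fell by 0.53 (SE 0.10, adjusted p = 1.84e-05 by edgeR). Cldn12 rose with the mitochondrial share of the library, by 0.31 log2 CPM per doubling (SE 0.05), and with that share as a covariate the log2 fold change was -0.28 (adjusted p = 0.00933). When each gene was counted by its most abundant transcript alone, the log2 fold change was -0.39 with an adjusted p of 0.525.

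With the mitochondrial share as a covariate, 6 of the 10 claudins had a slope called at an adjusted p under 0.05, as did 63.7% of all genes tested. Cldn1 and Cldn12 were higher, and Cldn3, Cldn4, Cldn7 and Cldn15 lower, in libraries with a larger share. In that fit the KO/PEG to WT/PEG log2 ratio was 3.79 for Cldn3, 5.36 for Cldn4, 3.72 for Cldn7, 4.91 for Cldn2 and 4.06 for Cldn23, and all 5 passed. Cldn10 and Cldn18 also passed, at 1.99 and 0.46, and Cldn1 was at 0.10 without passing.

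**Figure D3:**
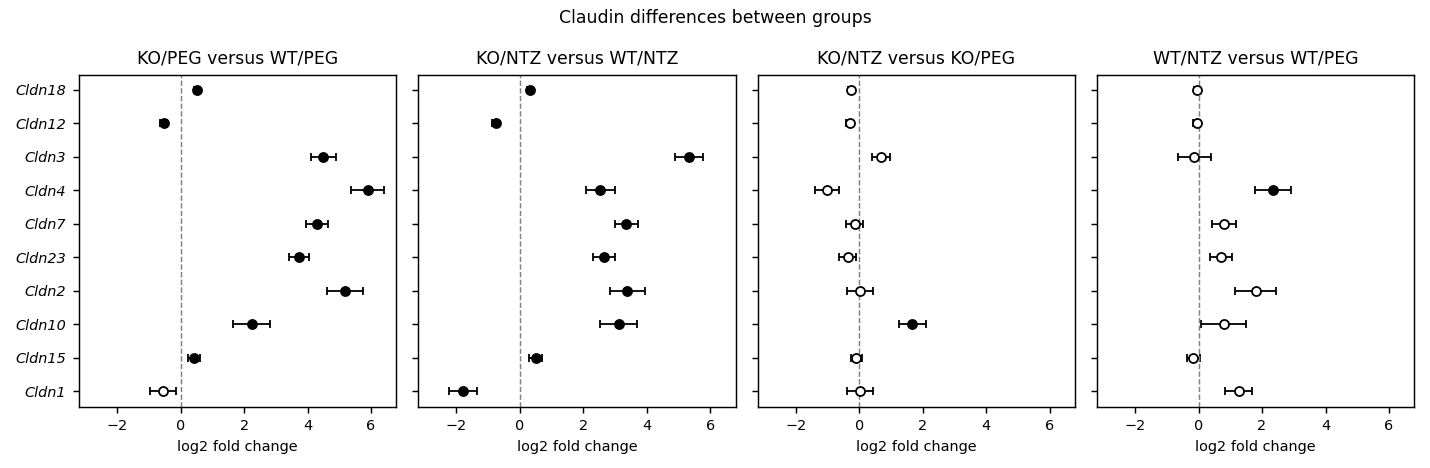
Log2 fold change (horizontal axes) of the 10 claudins (vertical axis) in 4 comparisons of groups. Bars are SEs derived from the F statistic of edgeR's quasi-likelihood test. Filled points passed at an adjusted p under 0.05 and open points did not. The 2 comparisons of genotype at the left carry 9 and 10 filled points, and the 2 comparisons of NTZ at the right carry 1 each.

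Cldn18 (ENSMUSG00000032473, chromosome 9 from 99689461 to 99717267, minus strand), the sealing claudin of the stomach, rose by little as a gene. Its lowest, median and highest values were 792.9, 887.7 and 1045 CPM in WT/PEG and 968.1, 1285 and 1741 CPM in KO/PEG mice. The WT/PEG range was exceeded by 11 of the 13 KO/PEG libraries. The difference was 1.44-fold (log2 fold change 0.52, SE 0.09, adjusted p = 1.24e-06 by edgeR). The fold was also exceeded in either direction by 55.8% of the genes tested, so its size was ordinary in this comparison.

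The gene has alternative first exons with separate starts. The upstream one begins at 99717267 and codes for the stomach form of the protein, and the downstream one begins at 99710063 and codes for the lung form. The first 60 coding bases of each, from the GRCm38 reference, are shown because they are where the isoforms of the protein differ, at 23 of the 60 positions set side by side, which capitals mark.
Cldn18 upstream first exon, chr9:99717156-99717215, minus strand: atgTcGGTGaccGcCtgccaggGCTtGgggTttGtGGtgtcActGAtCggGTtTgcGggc
Cldn18 downstream first exon, chr9:99709889-99709948, minus strand: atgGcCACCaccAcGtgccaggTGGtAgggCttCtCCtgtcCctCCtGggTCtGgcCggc

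The annotation has 2 transcripts with each first exon, and they differ in length. The long transcript (ENSMUST00000035048), with the downstream first exon, has 4172 bases, and the short transcript (ENSMUST00000112882), with the upstream one, has 1750 bases. The long transcript is the only annotated transcript with the distal part of the last exon. Of the stretches of 31 bases found only in transcripts with the downstream first exon, 2359 lay in that part and 331 in the first exon, while the 268 found only in those with the upstream first exon all lay in the first exon. A read from the distal last exon is thus counted for the downstream first exon whichever first exon its RNA began with. The counts below are therefore estimates for annotated transcripts and do not measure the use of the lung first exon. The other transcript with the downstream first exon (ENSMUST00000136429) was at 0 in all 44 libraries, and the summed lung markers Sftpc, Sftpb, Sftpa1 and Ager were at most 1.97 CPM.

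By these estimates, transcripts with the downstream first exon held 62.3% ± 3.9 (SD, n = 11) of the Cldn18 counts in WT/PEG, 66.2% ± 5.2 (SD, n = 9) in WT/NTZ, 89% ± 8.9 (SD, n = 13) in KO/PEG and 95.3% ± 4.8 (SD, n = 11) in KO/NTZ. The genotypes did not overlap, since the lowest KO value was 73.9% and the highest WT value 73.6%. The difference between KO/PEG and WT/PEG was 26.6 points (two-sided permutation test, adjusted p = 4e-05 over 4 comparisons, p = 2e-05, the smallest that the permutations can give). Between KO/NTZ and WT/NTZ it was 29.1 points (two-sided exact permutation test, adjusted p = 4e-05, p = 1.19e-05, the smallest possible). NTZ moved the share by 6.31 points in KO mice (permutation test, adjusted p = 0.0644) and by 3.83 points in WT mice (exact permutation test, adjusted p = 0.0782), and neither passed. Behind these shares were at least 3602 counts of the long transcript in each WT library and at least 6051 in each KO library.

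The counts of transcripts with the downstream first exon had a median of 565.9 CPM in WT/PEG and 1163 CPM in KO/PEG. They rose by 0.98 on the log2 scale in KO/PEG versus WT/PEG (SE 0.09, adjusted p = 1.44e-11 by edgeR over all transcripts, of which 53.5% were called) and by 0.76 in KO/NTZ versus WT/NTZ (SE 0.10, adjusted p = 6.1e-08, with 56.8% of all transcripts called). Those with the upstream first exon had a median of 347.7 CPM in WT/PEG and 186.2 CPM in KO/PEG. Their log2 fold change was -1.28 in KO/PEG versus WT/PEG, which did not pass (SE 0.58, adjusted p = 0.0623 by edgeR), and they fell by 2.59 in KO/NTZ versus WT/NTZ (SE 0.66, adjusted p = 0.000993). With NTZ in KO mice, where 2.56% of all transcripts were called, neither first exon passed, with log2 fold changes of -0.18 (adjusted p = 0.304) and -1.52 (adjusted p = 0.178 by edgeR).

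The large spread of the upstream estimate in KO mice came with the mitochondrial share of the library. The short transcript was listed at 0 in all 11 KO libraries with a share up to 3.8% (5 KO/PEG and 6 KO/NTZ). It was between 292.5 and 6373 counts in all 13 with a larger share. No WT library had so low a share, and none was at 0. In the KO libraries with the lower share, summed Cldn18 was between 1029 and 1316 CPM, inside the range of the other KO libraries, and the long transcript had at least 6051 counts. Of the libraries with at least the lowest mitochondrial share of a WT library, the downstream share was between 73.9% and 85.7% in 4 KO/PEG and between 87.5% and 93.4% in 3 KO/NTZ, still above the 55.2% to 73.6% of the 20 WT libraries. What links the mitochondrial share and the assignment was not tested.

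**Figure D4:**
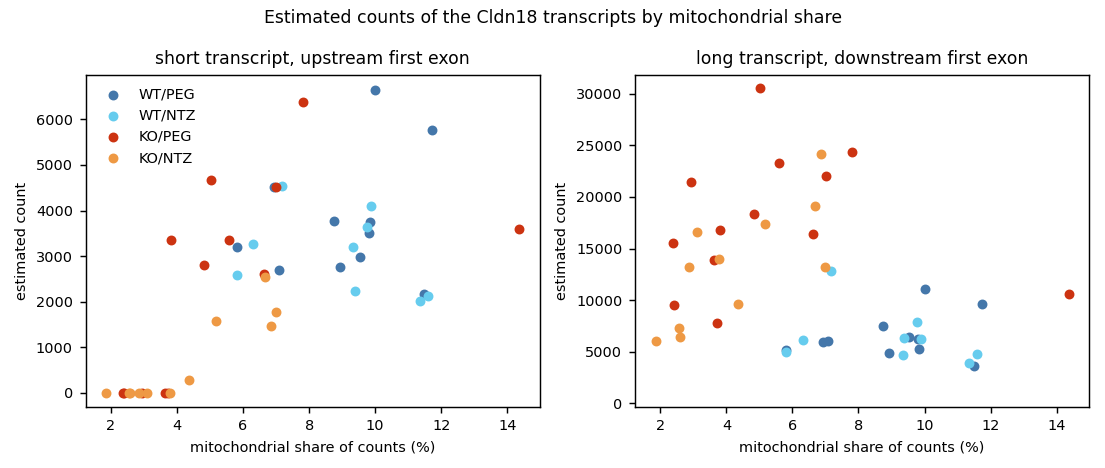
Estimated counts (vertical axes) of the short transcript, with the upstream first exon, and the long transcript, with the downstream first exon and the long last exon, against the mitochondrial share of counts in % (horizontal axes) in the 44 libraries, coloured by group. The short transcript is at 0 in the 11 KO libraries with the lowest shares, while the long one is not.

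The comparison of NTZ with vehicle in KO mice asked whether blocking the gastrin receptor moved the claudins of the KO mucosa. Of the 10, only Cldn10 was called (higher), where 5.56% of all genes tested were called, and the median log2 fold change was -0.12 against -0.01 over all genes. Cldn10 did not pass the filter with the WT/PEG and KO/PEG libraries alone. It was tested through the KO/NTZ libraries, where it was higher, and its call carries that limit. Cldn10 had 0.549, 1.96 and 3.41 CPM (lowest, median and highest) in KO/NTZ, beside 0, 0.338 and 1.47 CPM in KO/PEG. All 11 KO/NTZ libraries were above the KO/PEG median and 6 were above every KO/PEG library. The log2 fold change was 1.67 (SE 0.43, adjusted p = 0.0144 by edgeR). It was 1.32 with an adjusted p of 0.0809 in the subset of KO animals with numbers below 100, a number whose meaning the labels do not give, and 1.79 with an adjusted p of 0.145 without the libraries with squamous markers of 100 CPM or more.

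Cldn4 had 7.14, 12 and 34.8 CPM in the KO/NTZ libraries, of which 10 of 11 lay under the KO/PEG median of 30.1 CPM. The log2 fold change of -1.01 (SE 0.38, 95% interval from -1.76 to -0.27) did not pass after adjustment (adjusted p = 0.0969 by edgeR). With the mitochondrial share as a covariate it was -1.20 and passed (adjusted p = 0.0307). Cldn3 had 5.18, 21.5 and 26.9 CPM in KO/NTZ, and 9 of 11 were above the KO/PEG median of 10.9 CPM. Its log2 fold change of 0.70 (SE 0.28) did not pass (adjusted p = 0.127 by edgeR), but passed when KO_109 of KO/PEG was left out (0.86, adjusted p = 0.036).

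Summed Cldn18 had 848.4, 1112 and 1188 CPM in KO/NTZ, and all 11 were below the KO/PEG median. Its log2 fold change was -0.25 (SE 0.09, adjusted p = 0.069 by edgeR). Cldn12 had 14.9, 17.5 and 30 CPM in KO/NTZ (log2 fold change -0.30, SE 0.11, adjusted p = 0.0835). Both passed when any 1 of several libraries was left out. For Cldn12 these were KO_109 or KO_53 of KO/PEG, or KO_25, KO_26 or KO_27 of KO/NTZ, with log2 fold changes between -0.37 and -0.33. For Cldn18 they were KO_109, KO_32 or KO_46 of KO/PEG, or KO_25 of KO/NTZ, with values between -0.28 and -0.27. The lowest adjusted p of these fits was 0.0155 for Cldn12 and 0.029 for Cldn18.

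Cldn2, Cldn7, Cldn15, Cldn23 and Cldn1 did not pass. Their log2 fold changes with NTZ in KO mice were 0.01 (95% interval from -0.79 to 0.81), -0.15 (from -0.70 to 0.40), -0.09 (from -0.45 to 0.27), -0.37 (from -0.90 to 0.15) and 0.03 (from -0.77 to 0.82), in that order. Cldn23 lay under the KO/PEG median in 10 of 11 KO/NTZ libraries.

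Between KO/NTZ and WT/NTZ mice, all 10 claudins were called, 8 higher and 2 lower, where 72.4% of all genes were called, 35.6% higher and 36.8% lower. The comparison shares no library with that of the vehicle groups, but the limits on choice and filter given there apply here too. Cldn3 was 40.1-fold higher (log2 fold change 5.32, SE 0.43, adjusted p = 2.05e-13 by edgeR), and its libraries did not overlap, nor did those of Cldn7 (log2 fold change 3.34) and Cldn23 (log2 fold change 2.65). Cldn2 was higher by 3.39, Cldn10 by 3.11 and Cldn4 by 2.54 on the log2 scale. These sizes moved with the WT/NTZ libraries included. Without the libraries with squamous RNA, which left 3 WT/NTZ, Cldn4 was 5.39, Cldn3 4.99 and Cldn2 7.36, the last against WT/NTZ values of at most 0.123 CPM. Cldn2 was 5.29 without the libraries with Gast RNA and 4.36 without WT_118 alone. Cldn12 fell by 0.77 (SE 0.12, adjusted p = 2.45e-07 by edgeR), a call lost with the most abundant transcript alone (-1.07, adjusted p = 0.107).

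Cldn1 was also lower in KO/NTZ than in WT/NTZ mice, with 0, 0.565 and 2.25 CPM in KO/NTZ against 0.369, 2.48 and 4.17 CPM in WT/NTZ. It fell by 1.79 on the log2 scale (SE 0.43, adjusted p = 0.000364 by edgeR). The call was lost without the libraries with squamous markers of 100 CPM or more, where the log2 fold change was -0.54 (adjusted p = 0.472), with 6 KO/NTZ and 3 WT/NTZ libraries. It was also lost with the mitochondrial share as a covariate (-1.06, adjusted p = 0.0672). Cldn15 and Cldn18 had log2 fold changes of 0.49 (adjusted p = 0.0305) and 0.30 (adjusted p = 0.00434 by edgeR). For Cldn15 the call was lost without KO_29 or KO_36 of KO/NTZ or WT_92 or WT_103 of WT/NTZ, with adjusted p between 0.0508 and 0.0561. It was lost too with the most abundant transcript (adjusted p = 0.246) and without the libraries with Gast RNA (adjusted p = 0.0788). Without the libraries with squamous RNA neither passed, at 0.40 (adjusted p = 0.38) for Cldn15 and 0.21 (adjusted p = 0.297) for Cldn18. With the mitochondrial share as a covariate the values were 0.13 (adjusted p = 0.662) for Cldn15 and 0.22 (adjusted p = 0.0978) for Cldn18.

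In WT mice, Cldn4 was the only one of the 10 called with NTZ, where 1.03% of all genes were called. It had 0, 2.96 and 7.84 CPM in WT/NTZ beside 0, 0.392 and 1.9 CPM in WT/PEG, and 5 of 9 WT/NTZ libraries were above every WT/PEG library. The log2 fold change was 2.34 (SE 0.57, adjusted p = 0.0275 by edgeR). The effect of NTZ on Cldn4 differed between the genotypes by -3.36 on the log2 scale (SE 0.68, adjusted p = 0.0103 by edgeR). Cldn4 was the only 1 of the 10 called, where 0.96% of all genes were called. Cldn1, Cldn2, Cldn7 and Cldn23 had an unadjusted p under 0.05, at -1.24, -1.78, -0.95 and -1.07, and did not pass after adjustment.

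Cldn4 in WT/NTZ libraries moved with squamous RNA. The 6 WT/NTZ libraries with summed squamous markers of 100 CPM or more had between 1.35 and 7.84 CPM of Cldn4, and the other 3 had at most 0.86 CPM. In WT/PEG these sets overlapped, since the 3 libraries at 100 CPM or more began at 0.738 CPM of Cldn4. The others reached 1.02 CPM. WT_117, with the highest squamous sum at 4552 CPM, had the highest Cldn4. Without the libraries at 100 CPM or more, which left 3 WT/NTZ and 8 WT/PEG, the log2 fold change was -0.25 (adjusted p = 1 by edgeR). The difference between the genotypes was then -0.96 (adjusted p = 1). Leaving out WT_117 alone gave a log2 fold change of 1.97 with an adjusted p of 0.122, and the call was also lost without WT_103 or WT_118 of WT/NTZ, or WT_128, WT_129, WT_147, WT_150, WT_172_1 or WT_173 of WT/PEG, with adjusted p between 0.0544 and 0.0706. The difference in Cldn4 between KO/PEG and WT/PEG was as large without the libraries with squamous RNA, at 6.35 on the log2 scale (adjusted p = 8.05e-11).

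**Figure D5:**
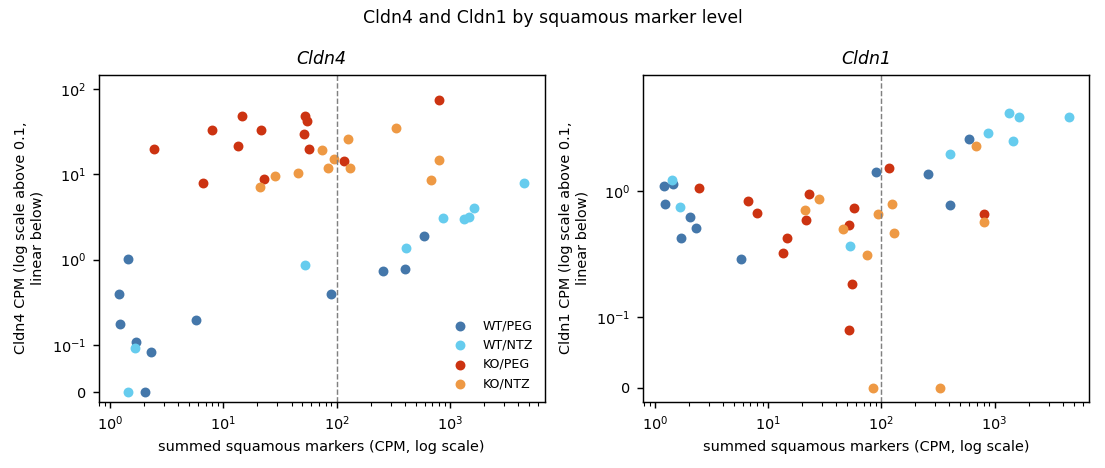
Cldn4 and Cldn1 in CPM (vertical axes, log scale with a linear part near 0) against the summed CPM of 9 squamous markers (horizontal axes, log scale) in the 44 libraries, coloured by group. The dashed line marks 100 CPM. In WT/NTZ libraries both claudins are higher to the right of the line, while Cldn4 in KO libraries is above 7 CPM on both sides.

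The other claudins had no called change with NTZ in WT mice. Cldn1 had a log2 fold change of 1.27 (SE 0.43, adjusted p = 0.219 by edgeR), and -0.02 without the libraries with squamous RNA. Cldn2 had 1.80 (SE 0.65, adjusted p = 0.295), where WT_118 and WT_117, both with gastrin RNA, held the highest values at 3.04 and 1.71 CPM. The same pair of libraries held the highest Cldn7, at 6.32 and 8.87 CPM, and the highest Cldn23, at 4.13 and 5.34 CPM. Without the libraries with Gast of 10 CPM or more, the log2 fold change of Cldn2 was -0.02. Cldn18, Cldn12, Cldn15, Cldn3, Cldn7, Cldn23 and Cldn10 had log2 fold changes between -0.16 and 0.80.

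The 3 further claudins with a mean of at least 1 CPM were Cldn8, Cldn22 and Cldn5. Cldn8, a sealing claudin of the kidney collecting duct, had 8.69, 9.41 and 12.6 CPM in WT/PEG and 0.367, 1.86 and 4.29 CPM in KO/PEG mice, with no overlap. It fell by 2.47 on the log2 scale (SE 0.33, adjusted p = 1.42e-08 by edgeR), and by 2.67 in KO/NTZ versus WT/NTZ. Its change ran against that of Cldn3, Cldn4 and Cldn7. Cldn22 had a log2 fold change of 0.91 in KO/PEG versus WT/PEG (adjusted p = 0.03) and of 1.73 in KO/NTZ versus WT/NTZ (adjusted p = 0.000409). Cldn5, the claudin of blood vessels, rose with NTZ in KO mice (log2 fold change 0.86, SE 0.25, adjusted p = 0.0355 by edgeR). The summed endothelial markers were between 143.6 and 349.3 CPM in KO/PEG and between 68 and 665 CPM in KO/NTZ. Of the 4 markers 2 fell with NTZ in KO mice, and their part in this was not tested. The remaining 22 family members had means of at most 0.46 CPM.

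Among 27 genes of the tight junction that claudins work with, 26 were tested. In KO/PEG versus WT/PEG 6 rose and 13 fell, with a median log2 fold change of -0.21 against -0.00 over all genes. Calls were as common over all genes here, at 74.7% (37.5% higher and 37.2% lower). The 5 with the smallest p were Magi1, a scaffold, which fell by 0.80 on the log2 scale, Tjp3, the scaffold ZO-3, which rose by 0.98, Mpp5, a polarity protein also called Pals1, which fell by 1.12, Jam2, an adhesion molecule, which fell by 1.44, and Crb3, an apical polarity protein, which rose by 1.03. With NTZ in KO mice 1 rose and 1 fell, where 5.56% of all genes were called. Ildr1, which marks the corners where 3 cells meet, rose by 1.80 (SE 0.31, adjusted p = 0.000179 by edgeR), from 1.15 ± 0.56 CPM (SD, n = 13) to 4.09 ± 2.87 CPM (SD, n = 11). Cxadr, a virus receptor and adhesion molecule, fell by 0.43 (adjusted p = 0.048). In KO/NTZ versus WT/NTZ 7 rose and 12 fell, where 72.4% of all genes were called, and with NTZ in WT mice 0 were called by edgeR, with 3 at an unadjusted p under 0.05. Pard6b, Ocln and Marveld2, the genes of a polarity protein, occludin and tricellulin, came next with NTZ in KO mice, at log2 fold changes of -0.42, -0.48 and -0.28, which did not pass.

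Of 19 genes of adherens junctions and desmosomes, 7 rose and 7 fell in KO/PEG versus WT/PEG, with a median of -0.13, near the 74.7% called over all genes. Those with the smallest p were Epcam, the partner of claudin-7, which rose by 1.58 on the log2 scale, Nectin2, which rose by 1.58, Nectin1, which rose by 1.53, and Nectin4, which rose by 0.72. Nectins are adhesion molecules of the adherens junction. With NTZ in KO mice 0 were called by edgeR and 2 had an unadjusted p under 0.05. Epcam, Nectin1 and Pkp2 had the smallest p there, at 0.28, 0.39 and -0.15 on the log2 scale. With NTZ in WT mice 2 rose (1.03% of all genes were called), and in KO/NTZ versus WT/NTZ 4 rose and 9 fell (72.4% of all genes).

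Of 24 transcription factors known to act on epithelial or junction genes, 21 were tested, and in KO/PEG versus WT/PEG 6 rose and 9 fell, near the 74.7% called over all genes. Elf3, an epithelial factor, rose by 1.35 on the log2 scale and Ovol2, which keeps cells epithelial, by 0.93. Gata6 and Foxa2, factors of gut endoderm, fell by 1.30 and 1.20. With NTZ in KO mice 0 were called by edgeR and 4 had an unadjusted p under 0.05, namely Snai2, Ovol2, Elf3 and Klf5, at -0.78, 0.27, 0.32 and 0.49 on the log2 scale. With NTZ in WT mice 0 were called by edgeR and 2 had an unadjusted p under 0.05, and in KO/NTZ versus WT/NTZ 3 rose and 11 fell, where 72.4% of all genes were called.

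The genes most like each claudin were taken as those with the highest Pearson r of log2 CPM over the 44 libraries, a description in which libraries share depth and genotype. For Cldn4 they were Tprg (r = 0.96), Duoxa1 (0.952) and Ly6d (0.949). For Cldn7 they were Tnfsf13 (0.976), Prss32 (0.976) and Lgals4 (0.972), for Cldn3 Mpzl1 (0.964), Upp1 (0.954) and Pglyrp1 (0.954), for Cldn2 Pigr (0.956), Sftpd (0.947) and Aqp5 (0.945), and for Cldn23 Dmbt1 (0.953), Ttc9 (0.947) and Tmc5 (0.943). The others were, for Cldn12, Twistnb (0.95), Arih1 (0.949) and Ube2d3 (0.946), for Cldn18 Anxa7 (0.893), Cotl1 (0.884) and Cyp2d26 (0.884), for Cldn10 Cyp4a12a (0.86), Asgr1 (0.855) and Iffo2 (0.854), for Cldn1 Zfp185 (0.85), Plxdc2 (0.794) and Ank (0.791), and for Cldn15 Gm12693 (0.69), Crtap (0.659) and Gm15610 (0.651).

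After the group means were subtracted, so that only the spread within groups was left, Cldn4 was most like Nccrp1 (0.856), Tprg (0.853) and Sfn (0.842). Nccrp1 and Sfn are genes of squamous epithelium. Cldn2 was still most like Pigr (0.703), the receptor that carries IgA through the epithelium, and Aqp5 (0.697), a water channel, followed by Cftr (0.678), a chloride channel. Cldn7 was most like Tnfsf13 (0.808) and Prss32 (0.788), Cldn23 like Mgst1 (0.789), Tppp (0.742) and Aldh3b2 (0.741), and Cldn18 like Hsd17b11 (0.834), Lasp1 (0.83) and Cotl1 (0.808). Cldn12 had Strn3 (0.867), Ccni (0.862) and Fam91a1 (0.859), Cldn3 had Nxn (0.707), Mpzl1 (0.698) and Impdh1 (0.679), and Cldn1 had Zfp185 (0.774), Pcdh18 (0.756) and Plxdc2 (0.747). For Cldn10 they were Asgr1 (0.686), Cers5 (0.658) and Hivep3 (0.655), and for Cldn15 Gm12693 (0.634), Crtap (0.587) and Srp14 (0.585).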

How the data were processed

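Libraries were made with a stranded mRNA kit and sequenced as single reads of 75 cycles on 2 flow cells, and which library was on which is not given in the sources used here. The authors estimated counts per GRCm38 transcript with kallisto 0.42.4 and deposited these estimated counts without normalization, and which annotation release they used is not given in the sources used here. Transcripts were paired with gene names by GENCODE vM21 for 92372 of 94080. The 1708 others held at most 1.3% of a library. Counts were summed per gene and rounded. Genes were kept with filterByExpr (minimum count 10, minimum total 15), normalized by TMM and modelled in edgeR 4.0.16 (R 4.3.3) on all 44 libraries, with 4 group means. The SE of an edgeR log2 fold change is its absolute value divided by the square root of the F statistic of the quasi-likelihood test. Intervals of log2 fold changes are normal 95% intervals from these SEs. Contrasts were tested by the quasi-likelihood test, with Benjamini-Hochberg adjustment over all genes and a threshold of 0.05. First exon sums of Cldn18 were fitted with all transcripts. Shares were compared by permutation of group means (100000 resamples, or exact). Per-length levels were computed from the estimated counts and annotated transcript lengths. Reads that fit several transcripts were shared out by kallisto, which makes single transcripts less certain than gene sums.

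The claudins and gene lists were chosen with earlier results of these data known. The genes named besides the claudins were the 5 (tight junction) or 4 (other lists) with the smallest p, and the 3 most like each claudin. Some genes that this rule names are not reported here. Alternatives were DESeq2 size factors, no filter, a minimum count of 50, DESeq2 1.42.0, limma-trend (limma 3.58.1), only the groups compared, the WT/PEG libraries of animal 172 summed, the libraries of animal 110 left out, the most abundant transcript, and subsets by animal number. The mitochondrial covariate, the libraries left out for squamous or Gast RNA, single libraries left out, and per-length shares of Cldn18 were chosen after seeing the data. The pair of libraries of animal 172 differed by a chi-square of 17.6 per degree of freedom, rank 11 from the lowest of 55 WT/PEG pairs. Both were counted as samples. The chi-square cannot show whether 1 mouse gave both, since samples of 1 mouse can differ too. If 1 mouse did, the libraries are not independent. The test was tried on simulated data. Figures were drawn with matplotlib 3.10.9.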

Additional observations from a re-analysis of the deposited data

Results flagged for a closer look

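The log2 difference of the NTZ effects on Cldn4 between KO and WT mice was -3.36 (standard error 0.68, adjusted p = 0.0103 by edgeR), which came from a test of the difference itself. Cldn4 was higher with NTZ in WT mice (7 of 9 WT/NTZ libraries above the WT/PEG median) and lower in KO mice (under the KO/PEG median in 10 of 11 KO/NTZ libraries), where only the first passed. The difference was -0.96 (adjusted p = 1) without the libraries with squamous RNA. Among the WT/NTZ libraries, the 1 group of 10 or fewer, no claudin had a library that stood apart by Dixon's test at the 95% level, in which chance marks about 1 in 20 groups.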

How the results depend on the processing

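Of the called differences between genotypes, those of Cldn2, Cldn3, Cldn4, Cldn7, Cldn10, Cldn18 and Cldn23 in KO/PEG versus WT/PEG kept their direction and their call under every alternative in which they could be fitted, with log2 fold changes between 1.07 for Cldn10 or 0.46 for Cldn18 and 6.35 for Cldn4. In this comparison Cldn10 was not tested with a minimum count of 50 or with only the groups compared. Nor was it tested with the most abundant transcript or with animals numbered 100 or above. No paired analysis was possible because the groups share only the animal number 110. The number of the 10 claudins called with NTZ in KO mice, 1, was 0 with a minimum count of 50, with only the groups compared, with the most abundant transcript, with KO animals numbered below 100 and without libraries with squamous RNA, and 3 with DESeq2 and with the mitochondrial covariate. Cldn10 was not tested with a minimum count of 50 or with the most abundant transcript, and was 1.66 (adjusted p = 0.0537) with only the groups compared. Without single libraries, the number called with NTZ in KO mice was between 1 and 4. The number called in WT mice, 1, was 0 with limma-trend, with only the groups compared, and without libraries with squamous or with Gast RNA, 3 with animals numbered 100 or above, and between 0 and 1 without single libraries. With only the groups compared, Cldn4 did not pass the filter and was not tested. Animal numbers of 100 or above were uneven over the groups, in 11 of 11 WT/PEG, 4 of 9 WT/NTZ, 7 of 13 KO/PEG and 1 of 11 KO/NTZ libraries. These 4 WT/NTZ libraries had summed squamous markers between 878 and 4552 CPM. The 1 called difference of NTZ effects became 0 with limma-trend (Cldn4 -2.52, adjusted p = 0.1) and without libraries with squamous (-0.96) or with Gast RNA (-3.07, adjusted p = 0.0651). Cldn4 in WT mice was 2.06 without libraries with Gast RNA and 1.63 with limma-trend. The upstream first exon of Cldn18 passed in KO/PEG versus WT/PEG with DESeq2 size factors (-1.34, adjusted p = 0.049).

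The sign changed only for differences that had not been called and for Cldn4 with NTZ in WT mice, and the cause was not tested. With NTZ in KO mice Cldn1 was -0.22 with limma-trend, -0.0025 with the most abundant transcript, -0.20 with animals numbered below 100, -0.13 without squamous libraries and between -0.39 and 0.20 without single libraries. Cldn2 was -0.00087 with limma-trend, -0.13 with the mitochondrial covariate, -0.092 without squamous libraries and between -0.14 and 0.20 without single libraries. Cldn15 was 0.22 with animals numbered below 100 and between -0.14 and 0.0016 without single libraries, and Cldn7 between -0.28 and 0.079. With NTZ in WT mice and no squamous libraries, Cldn4 was -0.25, Cldn1 -0.018, Cldn2 -2.27, Cldn3 0.47, Cldn12 0.058 and Cldn23 -0.95. Cldn2 was -0.019 without Gast libraries. With the most abundant transcript Cldn12 was 0.16 and Cldn18 0.028, and Cldn18 was 0.028 with animals numbered 100 or above. Cldn3 was between -0.31 and 0.12 without single libraries. The difference of NTZ effects was 2.18 for Cldn2, -0.061 for Cldn15 and 0.42 for Cldn23 without squamous libraries, and 0.05 for Cldn2 without Gast libraries. Cldn1 in KO/PEG versus WT/PEG was 0.10 with the mitochondrial covariate.

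Depth limits Cldn1, Cldn2, Cldn3, Cldn4, Cldn10 and Cldn23 in WT mice, where some libraries held at most 3 counts. Over all genes, 154 were called with NTZ in WT mice, 2 by limma-trend and 485 with animals numbered 100 or above. The number was 0 with only the groups compared, 24 without libraries with squamous RNA and 5 without those with Gast RNA.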
